A study of Homo sapiens and Mus musculus with 66 samples.

Results

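Human chromosome 18 was examined as the 781 windows of 100 kb into which its 78077248 bp (hg19) divide, out of 30970 windows on 24 chromosomes. All windows of the chromosome were taken by position, and none was kept or dropped by its calls. The chromosome itself was chosen with earlier results of these data known. With the border of the arms set at 17 Mb, 170 windows belonged to the short arm and 611 to the long arm. Each window was read in 10 deposited lists of lamina-associated domains (LADs), 1 list per condition, and counted as called where a region of the list covered at least 50% of it. All positions are hg19, in Mb from the tip of the short arm.

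The lists come from lamin-B1 cTSA-seq, in which an antibody to lamin-B1 directs a peroxidase that deposits biotin-tyramide on nearby chromatin of fixed cells, the biotinylated chromatin is pulled down with streptavidin, and its DNA is sequenced beside the input. K562, a human leukemia cell line, was profiled as an asynchronous culture without treatment, from 2 input and 2 pull-down libraries. HCT116, a human colorectal cancer cell line, was profiled as asynchronous cells in bulk (2 input and 2 pull-down libraries), at 1000000 cells (1 of each), and at 200000 and at 50000 cells (1 input and 2 pull-downs at each number). HCT116 cells were also sorted at 5 stages, with 2 input and 2 pull-down libraries at each: the 90m G1 and 180m G1 cells came from a nocodazole block followed by release and sorting for G1, while the cells of the G1, S and G2 lists were sorted with no block. The block and the minutes after release therefore cannot be told apart when the 90m G1 or 180m G1 list is set beside the other 3 stages. Each cell line is a single line, and because the lists hold regions and no expression, the lines could not be checked against marker genes. Each condition has 1 list, with none for single replicates, and it carries neither signal nor reads, so the depth is unknown and no SD, interval between replicates or test can be given. All values below describe the lists.

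The nuclear lamina is a meshwork of A-type and B-type lamins under the inner nuclear membrane, and LADs are the long stretches of chromatin that lie against it. LADs are typically poor in genes, poor in G and C, late replicating and weakly transcribed, and part of them differs between cell types. Chromosome 18 is the textbook example of a gene-poor human chromosome found toward the nuclear periphery, usually set beside the gene-rich chromosome 19 in the nuclear interior.

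By the GENCODE annotation mapped to hg19, chromosome 18 held 266 of 20162 protein-coding genes, 66 on the short arm and 200 on the long arm. Its density of 3.41 genes per Mb ranked 21 of the 22 autosomes, between 2.80 on chromosome 13 and the densities of the other 20, which reached 25.0 on chromosome 19. The density over all chromosomes was 6.51 genes per Mb. The GC content of chromosome 18 was 39.8%, against 40.9% over all chromosomes. Unsequenced bases made up 3.42 Mb, most of them in the centromere gap of 31 windows from 15.4 to 18.5 Mb.

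In the 150 bases upstream of each of the 266 genes, the median was 13 CpGs (range 0 to 35), and 95.1% held at least 1. The median was 7 CpGs for the 19 genes inside regions of 9 or 10 lists, by the 80% rule given below, 11 for the 73 genes inside regions of 1 to 8 lists and 14 for the 174 genes inside no region. The first of these groups also held the longer genes, with a median length of 173 kb against 51.0 kb for the genes inside no region. The median was 13.5 CpGs for the 30 genes inside at 90m G1. As examples, these bases held 14 CpGs upstream of SETBP1, which lies inside regions of all 10 lists. For SETBP1 the bases themselves lie 39.9 kb before the stretch called in all 10 lists, in a window not called at 90m G1. There were 2 CpGs upstream of CDH7, in windows called in the 9 lists other than 90m G1. There were 11 upstream of ZNF407, in windows called at 90m G1 and at no other stage. The bases held 19 upstream of DOK6, in windows called in K562 alone, and 23 upstream of GREB1L, in windows of no list.

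In 9 of the 10 lists a larger share of chromosome 18 than of all chromosomes was called, and the exception was the 90m G1 list. In K562, 425 windows (54.4%) were called, against 39.6% of all windows. In HCT116 bulk cells 360 windows (46.1%) were called, against 26.9%. With 1000000 cells 315 windows (40.3%) were called against 21.2%, with 200000 cells 322 (41.2%) against 21.9%, and with 50000 cells 311 (39.8%) against 22.8%. The totals of the 3 cell numbers thus differed by at most 11 windows on chromosome 18. Window by window they differed more, with 22 windows called with 200000 and not with 50000 cells, and 11 the other way. Among the sorted stages, 295 windows (37.8%) were called at 180m G1 against 20.5% of all windows, 289 (37%) at G1 against 20.2%, 312 (39.9%) at S against 22.4% and 283 (36.2%) at G2 against 20%. At 90m G1 the count was 95 windows (12.2%), below the 17% of all windows.

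**Figure D1:**
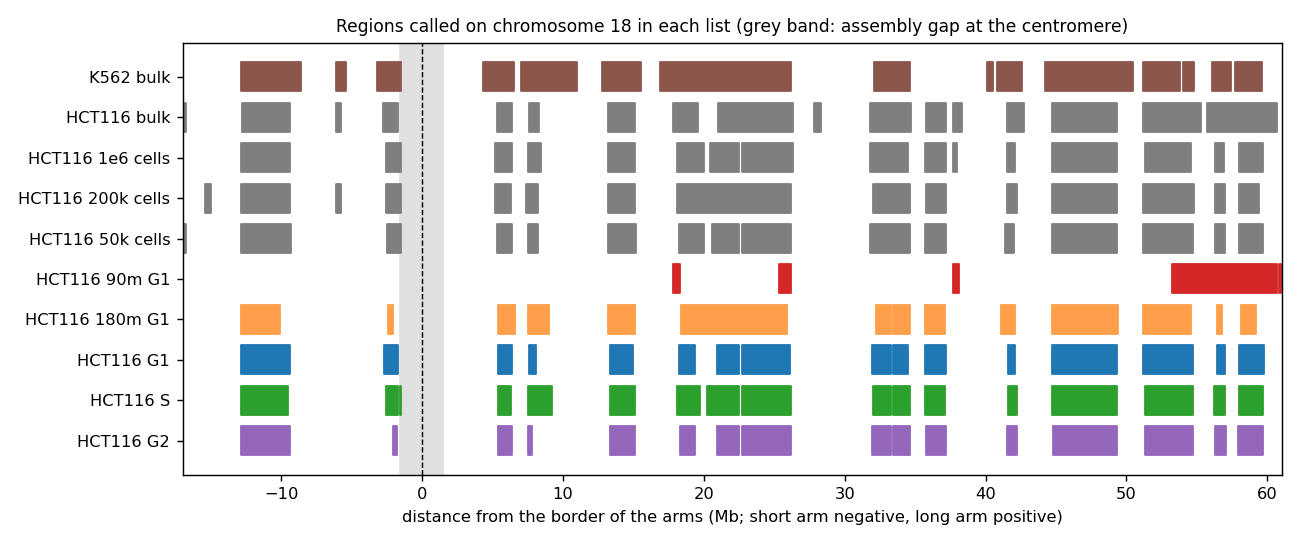
Regions called on chromosome 18 in each of the 10 lists (rows), plotted by distance in Mb from the border of the arms (dashed line), with the centromere gap in grey. The 90m G1 list has no region on the short arm and 1 region of 7.5 Mb near the end of the long arm, while the other 9 lists have blocks on both arms at similar places.

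Chromosome 18 had the highest share of the 22 autosomes in 8 lists, namely all HCT116 lists except 90m G1. Chromosome X, which is not an autosome, had a higher share than chromosome 18 in each of these 8 lists. Its share was 47.3% in HCT116 bulk cells, 46.1% at 180m G1 and 38.4% at G1. Among the autosomes, chromosome 18 ranked 2 in K562, behind chromosome 4 with 63.2%. At 90m G1 it ranked 14, and chromosome 5 was highest with 26.5%. The median of the other 21 autosomes was 33.2% in K562, 25.3% in HCT116 bulk cells, 14.5% at 90m G1, 16.6% at 180m G1 and between 18.4% and 20.4% in the other 6 lists. Chromosome 13, the only autosome with a lower gene density, had 47.1% called in K562, 25.3% in HCT116 bulk cells, 16.9% at G1 and 4.77% at 90m G1. On the gene-rich chromosome 19 the shares were 4.90% in K562, 17.2% in HCT116 bulk cells, 17.1% at G1, 12.7% at S, 8.28% at G2 and 0 at both 90m G1 and 180m G1. The autosomes are single values within 1 list each, and no test of the position of chromosome 18 among them was made.

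**Figure D2:**
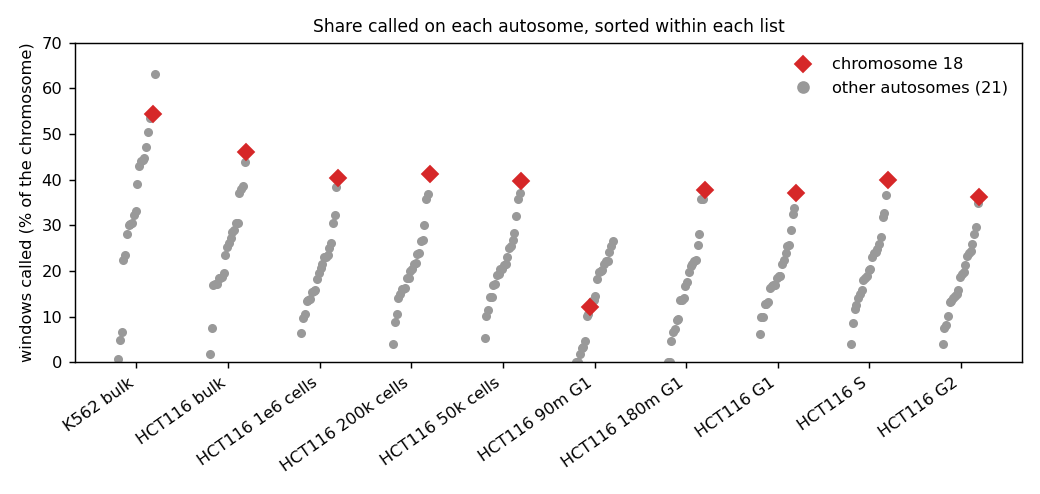
Share of windows called (percent of the chromosome) for chromosome 18 (red diamond) and the other 21 autosomes (grey points), sorted within each list. Chromosome 18 is the highest point in 8 lists, the one below chromosome 4 in K562, and rank 14 at 90m G1.

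The long arm carried the higher share in every list. The short arm had 67 windows called in K562 (39.4%), 49 in HCT116 bulk cells (28.8%), 46 with 1000000 cells (27.1%), 53 with 200000 cells (31.2%) and 47 with 50000 cells (27.6%). Its share was 18.2% at 180m G1, 26.5% at G1, 25.9% at S and 22.4% at G2, and no window of it was called at 90m G1. The long arm had 358 windows called in K562 (58.6%), 311 in HCT116 bulk cells (50.9%), 269 with both 1000000 and 200000 cells (44%) and 264 with 50000 cells (43.2%). Its share was 15.5% at 90m G1, 43.2% at 180m G1, 39.9% at G1, 43.9% at S and 40.1% at G2. The ratio of the long-arm to the short-arm share lay between 1.41 with 200000 cells and 1.79 at G2 in the lists other than 90m G1 and 180m G1, and was 2.37 at 180m G1. The short arm had 3.88 gene starts per Mb and a GC content of 41.0% ± 2.94 (SD over windows), and the long arm 3.27 gene starts per Mb and 39.5% ± 4.01.

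**Figure D3:**
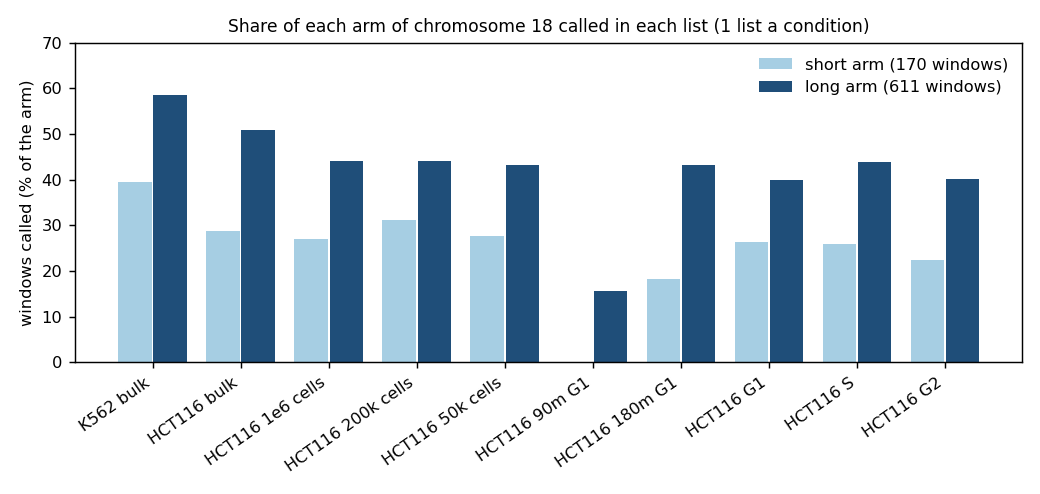
Share of the 170 short-arm windows (light bars) and the 611 long-arm windows (dark bars) called in each list, in percent of the arm. The dark bar is the higher in all 10 lists, and the light bar is at 0 at 90m G1.

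The called windows lay in few, long regions. K562 had 15 regions on chromosome 18, HCT116 bulk cells 17, the 3 cell numbers 16, 15 and 16 in falling order of cells, 180m G1 14, G1 16, S 17, G2 16 and 90m G1 5. No region spanned the border of the arms. The median region measured 2.2 Mb in K562, 1.4 Mb in HCT116 bulk cells, 1.3 Mb at 180m G1 and 0.5 Mb at 90m G1. The largest region of K562, from 33.9 to 43.2 Mb, measured 9.3 Mb, and regions within it measured 8.1 Mb with 200000 cells (35.1 to 43.2 Mb) and 7.5 Mb at 180m G1 (35.4 to 42.9 Mb). HCT116 bulk cells had 2 separate regions there, from 34.8 to 36.6 Mb and from 38 to 43.3 Mb, the latter its largest with 5.3 Mb. With 1000000 cells the largest region was instead the block from 61.7 to 66.3 Mb, of 4.6 Mb.

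Many windows were called either in no list or in nearly every list. No list called 287 windows (36.7%, against 44.8% of all windows), 105 were called in 1 list (13.4%, against 24.0%), 110 in 2 to 7 lists (14.1%, against 14%), 42 in 8 lists (5.38%, against 3.36%), 204 in 9 lists (26.1%, against 9.66%) and 33 in all 10. Of the windows called in 1 list, 85 were called in K562, 9 in HCT116 bulk cells, 6 at 90m G1, 4 with 200000 cells and 1 at 180m G1. At least 1 list called 494 windows (63.3%, against 55.2% of all windows).

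Windows called in all 10 lists numbered 33, all on the long arm, a share of 4.23% close to the 4.16% of all windows. They formed 5 stretches, from 42.3 to 42.9 Mb, 70.2 to 70.8 Mb, 71 to 71.6 Mb, 73.4 to 73.8 Mb and 75.1 to 76.2 Mb. The longest, chr18:75100001-76200000, holds no protein-coding gene by the 80% rule used below. Inside the others lie 3 genes: SETBP1 (chr18:42260138-42648475), which encodes a protein that binds the oncoprotein SET, CBLN2 (chr18:70203915-70305756), which encodes a cerebellin secreted at synapses, and NETO1 (chr18:70409549-70535381), which encodes an auxiliary subunit of glutamate receptors. SETBP1 lay 89.7% inside at 90m G1 and 100% inside in the other 9 lists, and CBLN2 and NETO1 100% inside in all 10. The 90m G1 list limits this class, because only its 95 windows could belong to it.

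Without the condition on 90m G1, 229 windows (29.3%) were called in all the other 9 lists, against 12.8% of all windows. Of these, 27 lay on the short arm and 202 on the long arm, in 15 stretches. The 3 longest ran from 61.8 to 66.3 Mb (4.5 Mb), from 39.7 to 42.9 Mb (3.2 Mb) and from 4.2 to 6.9 Mb (2.7 Mb). The first holds CDH7 and CDH19, which encode type II cadherins, and DSEL, which encodes a dermatan sulfate epimerase-like protein. In the second lie RIT2, a neuronal small GTPase gene, SYT4, a synaptotagmin gene, and SETBP1. The third, on the short arm, holds AKAIN1, ZBTB14, EPB41L3, TMEM200C, L3MBTL4 and ARHGAP28. In all, 19 genes lay inside these windows, and the density was 1.00 gene starts per Mb.

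The borders of the 4.5-Mb block differed little among the HCT116 lists other than 90m G1 and more between the lines. Its start lay at 61.7 or 61.8 Mb and its end at 66.3 or 66.4 Mb in those 8 lists, with 7 of them sharing the same start and 7 the same end. The K562 region around it ran from 61.2 to 67.5 Mb, or 6.3 Mb. For the short-arm block, HCT116 starts lay at 4.1 or 4.2 Mb and ends between 6.9 and 7.7 Mb, and the K562 region ran from 4.1 to 8.4 Mb. Across the 15 stretches, 9 lay in a K562 region longer than the span of all the HCT116 regions over them. The stretches are not separate cases, because some share a K562 region. Those from 35.4 to 36.4, 38 to 39.5 and 39.7 to 42.9 Mb all lie in the K562 region from 33.9 to 43.2 Mb. The HCT116 starts were spread over at most 200 kb in 7 stretches and the ends in 3.

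Windows called in K562 and in no HCT116 list numbered 85 (10.9%), below the 16.2% of all windows, with 15 on the short arm and 70 on the long arm. The longest of their 13 stretches, from 26.2 to 28.0 Mb, holds no protein-coding gene, and the next ran from 66.4 to 67.5 Mb over CCDC102B and DOK6, the latter a gene of a docking protein of neurotrophic receptor signaling. The stretch from 21.3 to 22.2 Mb holds LAMA3, TTC39C, CABYR, OSBPL1A, IMPACT and HRH4, and the stretch from 33.9 to 34.8 Mb holds FHOD3, TPGS2 and KIAA1328. PTPRM, a receptor tyrosine phosphatase gene, fills most of 7.7 to 8.4 Mb. In all, 29 genes lay inside these windows.

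Windows called in at least 1 HCT116 list and not in K562 numbered 69 (8.83%, against 15.5% of all windows), with 24 genes inside. Of these, 2 windows (0.256%, against 0.504%), from 70.8 to 71 Mb, were called in all 9 HCT116 lists. With 90m G1 left out of the condition there were 15 such windows (1.92%, against 1.49%), 13 of them in 1 stretch from 52.8 to 54.1 Mb. That stretch holds TCF4 (chr18:52889416-53332018), the gene of a basic helix-loop-helix transcription factor, which lay 100% inside regions of these 8 HCT116 lists and 0% inside regions of K562 and of 90m G1. By pairs, K562 and HCT116 bulk cells shared 303 windows, which made up 71.3% of the K562 windows and 84.2% of the HCT116 windows.

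At 90m G1 the called windows were gathered near the end of the long arm. The 5 regions ran from 34.8 to 35.3 Mb, 42.3 to 43.2 Mb, 54.7 to 55.1 Mb, 70.2 to 77.7 Mb and 77.8 to 78 Mb. In the last 10% of the chromosome, 76 of 78 windows (97.4%) were called at 90m G1, against 28 (35.9%) at 180m G1, 38 (48.7%) at G1, 39 (50.0%) at S, 40 (51.3%) at G2 and 45 (57.7%) in K562. HCT116 bulk cells had 70 windows (89.7%) there, and the lists of 1000000, 200000 and 50000 cells had 36, 36 and 38. The share of the last 10% was not computed for other chromosomes. The paper reports early G1 signal enriched toward the ends of metacentric, submetacentric and acrocentric chromosomes. The gathering near the end is therefore not called particular to chromosome 18.

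Of the 95 windows called at 90m G1, 89 (93.7%) were also called in HCT116 bulk cells, against 58.1% of the 90m G1 windows of all chromosomes. The next stage shared fewer, with 35 (36.8%) called at 180m G1, close to the 39.4% of all chromosomes. For the other stages the counts were 48 at G1 (50.5%, against 38.7%), 51 at S (53.7%, against 41.5%) and 50 at G2 (52.6%, against 37.1%), and for K562 60 (63.2%, against 40.7%). The lists of 1000000, 200000 and 50000 cells shared 51 (53.7%, against 32.9%), 48 (50.5%, against 34.5%) and 49 (51.6%, against 38.3%). HCT116 bulk cells and 90m G1 cells are separate experiments, and the other 3 lists of asynchronous HCT116 cells, which called at most 51 of the 95, did not have the pattern of the bulk list.

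Windows called at 90m G1 and at no other stage numbered 41 (5.25%, against 8.76% of all windows). Of these, 35 (85.4%, against 23.5% of such windows on all chromosomes) were called in HCT116 bulk cells, 10 (24.4%, against 11%) in K562, 3 (7.32%, against 1.14%) with 1000000 cells, 1 (2.44%, against 0.442%) with 200000 cells and 0 (against 1.18%) with 50000 cells. No other list called 6 of them (0.768% of the chromosome, against 5.97% of all windows). They formed stretches from 71.7 to 73.2 Mb, with CYB5A (cytochrome b5), the dipeptidase genes CNDP1 and CNDP2, ZNF407 and TSHZ1 among 11 genes, from 76.8 to 77.7 Mb, with ATP9B, NFATC1, CTDP1 and KCNG2, from 74.1 to 74.9 Mb, with ZNF236 and MBP, and shorter ones at 54.7 to 55.1 Mb, 34.8 to 35.1 Mb and 77.8 to 78 Mb. NFATC1 encodes a transcription factor activated through calcineurin, and MBP encodes myelin basic protein. The 6 windows of no other list lay at 72.3 to 72.7 Mb, within ZNF407, and at 77.8 to 78 Mb, over ADNP2 and PARD6G.

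The other stage lists differed in short pieces at borders and in some longer stretches. Called at the 4 stages other than 90m G1 and not at 90m G1 were 212 windows (27.1%, against 9.94% of all windows), with 17 genes inside, and all 5 stages shared a further 35 windows (4.48%, against 5.19%). Called at 180m G1 alone among the stages were 15 windows (1.92%, against 1.91%), at S alone 3 (0.384%, against 0.92%), at G1 alone 1 (0.128%, against 0.362%) and at G2 alone 0 (against 0.304%). The lists of 180m G1 and G1 shared 257 windows, or 87.1% of the first and 88.9% of the second. G1 and S shared 282, or 97.6% and 90.4%, and S and G2 shared 276, or 88.5% and 97.5%.

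Between 180m G1 and G1, the stretches called at 180m G1 alone included 25.1 to 26.0 Mb, over CDH2, and 36.4 to 37.9 Mb, while G1 alone included 6.9 to 7.6 Mb, over LAMA1, and 14.9 to 15.3 Mb. CDH2 (chr18:25512843-25757910) encodes N-cadherin, and it lay 100% inside regions of K562, 180m G1 and S and 0% inside regions of the other 7 lists. LAMA1 (chr18:6941741-7117796), a laminin alpha chain gene, lay 100% inside regions of all lists except 90m G1 and 180m G1, where its share was 0%. Whether such single stretches repeat between replicates was not tested, since the lists hold no replicates.

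Protein-coding genes were counted as inside where at least 80% of their length lay in regions of a list. On chromosome 18 these were 67 of 266 genes in K562 (25.2%, against 11% of all genes), 54 in HCT116 bulk cells (20.3%, against 11.1%), 28 with 1000000 cells (10.5%, against 4.89%), 30 with 200000 cells (11.3%, against 5.08%) and 27 with 50000 cells (10.2%, against 5.98%). At 180m G1 there were 26 (9.77%, against 5.3%), at G1 25 (9.40%, against 4.81%), at S 28 (10.5%, against 5.38%) and at G2 26 (9.77%, against 4.55%). At 90m G1, 30 genes were inside (11.3%, against 17.2%), all on the long arm. Per called Mb this gave 3.16 genes at 90m G1, 1.58 in K562, 1.5 in HCT116 bulk cells and between 0.865 and 0.932 in the other 7 lists. Over all chromosomes, 3462 genes were inside at 90m G1, with 5275 windows called. The counts were 2226 genes and 12274 windows in K562, and 2236 genes and 8344 windows in HCT116 bulk cells. The higher density at 90m G1 was therefore not particular to chromosome 18. Inside no region of any list were 174 genes (65.4%, against 69.5% of all genes).

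The genes that were inside fell into few patterns across the lists. K562 alone held 30 genes, all lists but 90m G1 held 16, and HCT116 bulk cells together with 90m G1 and no other list held 15. The 16 genes include ZNF521, ASXL3, NOL4, RIT2, SYT4, DCC, CDH7 and CDH19, and the 15 include ST8SIA3, TIMM21, CYB5A, CNDP1, TSHZ1, ATP9B, NFATC1 and CTDP1. ONECUT2, FECH and NARS1 were inside in HCT116 bulk cells alone.

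Among gene groups of known function, the desmosomal cadherins were outside in every list, while the number of other cadherins inside varied from 0 to 4 of 4 among the lists. The 7 desmocollin and desmoglein genes (DSC1 to DSC3 and DSG1 to DSG4), whose products join epithelial cells at desmosomes, lie in the stretch from 28.0 to 29.8 Mb that no list called, and 0 of 7 were inside in each. Among all genes of the chromosome, 65.4% were inside in no list. Of the 4 other cadherin genes, CDH7 and CDH19 were inside in the 9 lists other than 90m G1, CDH2 in 3 lists and CDH20 in 5. CDH20 lay 100% inside in K562 and HCT116 bulk cells, 89.7% at S and G2, 44.7% at G1 and 0% with 50000 cells, so that a border of the regions crosses this gene.

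The clade B serpin genes, which encode intracellular serine protease inhibitors and lie side by side on the long arm, were inside in K562 alone, where 9 of 10 were inside and SERPINB5, the gene of maspin, was not. The 3 melanocortin receptor genes MC2R, MC4R and MC5R, for receptors of ACTH and related peptides, were also inside in K562 alone, 3 of 3. Among all genes of the chromosome, 25.2% were inside in K562. Of the laminin genes, LAMA1 was inside in 8 lists and LAMA3, a chain of the laminin of epithelial basement membranes, in K562 alone, with 88.5% of its length.

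SMAD2, SMAD4 and SMAD7, which transmit or restrain TGF-beta signals, were inside in no list, as were 65.4% of all genes of the chromosome. SMAD4 (chr18:48554898-48611415) lies in the 3.5 Mb from 45.3 to 48.8 Mb that no list called, with 23 genes inside. Their neighbor DCC (chr18:49866567-51062269), which encodes a netrin receptor of axon guidance and spans 1196 kb, was inside in the 9 lists other than 90m G1, with 91.6% of its length at 180m G1, G1, S and G2 and 100% in the other 5.

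Of 12 genes with roles mostly in neurons, 9 were inside in K562 and in HCT116 bulk cells, 5 at 90m G1, 7 at G2 and 6 in each of the other 6 lists. For all genes of the chromosome the shares were those given above, 25.2% in K562, 20.3% in HCT116 bulk cells and 11.3% at 90m G1, and the group was listed with earlier results known. CBLN2 and NETO1 were inside in all 10 lists, and ADCYAP1 and DLGAP1 in none. This set also holds MBP, of myelin, and CCBE1, whose product is known for lymphatic vessel growth, which were inside in 3 lists and in K562 alone. CELF4, an RNA-binding protein gene, was 100% inside in K562, HCT116 bulk cells and 90m G1 and at most 14.2% inside in the other 7 lists.

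Of 12 zinc finger genes, 5 were inside in HCT116 bulk cells and at 90m G1, 3 in K562, 2 at G1 and 1 in each of the other 6 lists, and 5 were inside in none. Among all genes of the chromosome, 20.3% were inside in HCT116 bulk cells, 11.3% at 90m G1 and 25.2% in K562. The 5 inside at 90m G1 all lie in its region from 70.2 to 77.7 Mb. ZNF521 was inside in the 9 lists other than 90m G1, and ZNF407 at 90m G1 alone, with 22% of its length inside in HCT116 bulk cells. All 18 genes of general cell functions that were listed, such as RPL17 of the ribosome, ATP5F1A of the ATP synthase and TYMS of thymidylate synthesis, were inside in none, as were 65.4% of all genes of the chromosome, and the highest shares were 74.0% for USP14, a ubiquitin protease gene, in HCT116 bulk cells and with 50000 cells, and 30.1% for MBD2 in HCT116 bulk cells.

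**Figure D4:**
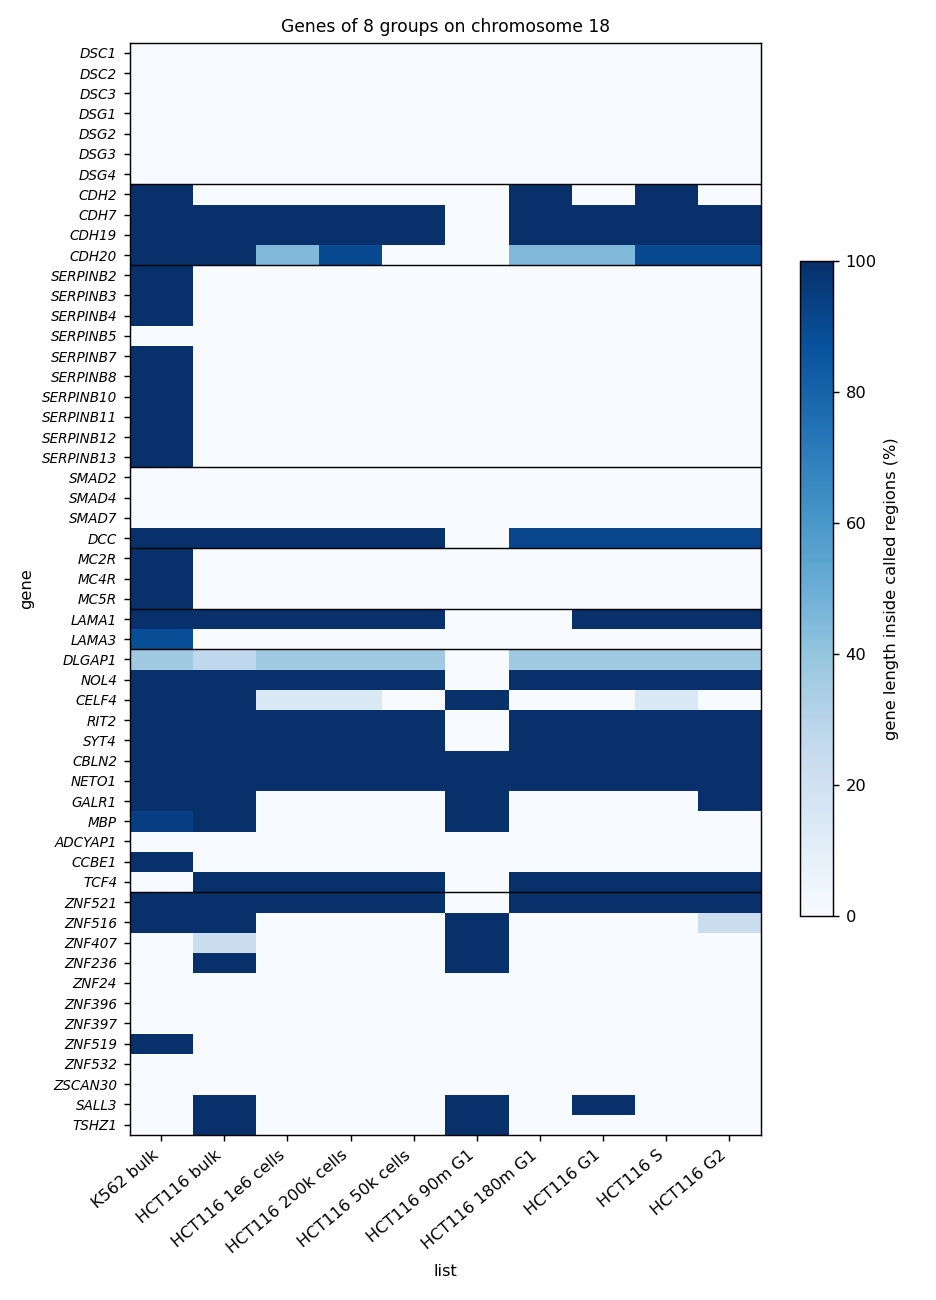
Share of each gene's length inside called regions (color, 0 to 100%) for genes of 8 groups (rows, separated by lines) in each of the 10 lists (columns). The 7 desmosomal cadherin genes are empty in every column, 9 of 10 serpin genes are filled in K562 alone, and CBLN2 and NETO1 are filled in all 10 columns.

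Stretches that no list called held most of the genes. The 287 windows formed 19 stretches with 165 genes inside and 6.03 gene starts per Mb, against 3.41 over the chromosome and 0.909 in windows of all 10 lists. The longest ran from 15.5 to 21.3 Mb, which includes the centromere gap, where no read can be placed, and holds 15 genes, among them ROCK1, a kinase gene of the actin cytoskeleton, GATA6, a transcription factor gene of endoderm, RBBP8 of DNA end resection and NPC1 of cholesterol transport. The next were 45.3 to 48.8 Mb, with the SMAD genes, MBD1 and CXXC1, and 8.4 to 10.9 Mb, with 12 genes that include RAB12, NDUFV2, VAPA and NAPG. BCL2, the founding gene of the BCL2 family of apoptosis regulators, lies in the stretch from 59.7 to 61.2 Mb.

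Windows called in 9 lists had a lower mean GC content than windows of no list, and windows called at 90m G1 a higher one. The GC content was 41.6% ± 3.37 (SD, n = 255 windows with sequence) in windows of no list, 38.9% ± 3.37 in windows of 1 list, 43.2% ± 5.31 and 42.5% ± 5.19 in windows of 2 and 3 lists, 37% ± 2.24 in windows of 9 lists and 39.9% ± 2.32 in windows of all 10. In windows of 4 to 8 lists the means lay between 38% and 40.2%, with no steady order. By list, windows called in K562 had 38.3% ± 3.24, windows called at G1 37.9% ± 2.89 and windows called at 90m G1 43.1% ± 4.57. Windows called at 90m G1 and at no other stage had 45.4% ± 4.85, above the 39.8% ± 3.86 of the chromosome and above the windows of no list. Their CpG density was 16.5 ± 7.56 per kb, against 10.8 ± 3.23 in windows of no list, 7.60 ± 1.99 in windows of K562 alone and 6.81 ± 1.89 in windows of the 9 lists other than 90m G1. Their 5.12 gene starts per Mb lay nearer to the 6.03 of windows in no list than to the 1.00 of the windows of the 9 lists. Neighboring windows are not independent, so the SDs describe the spread along the chromosome only.

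**Figure D5:**
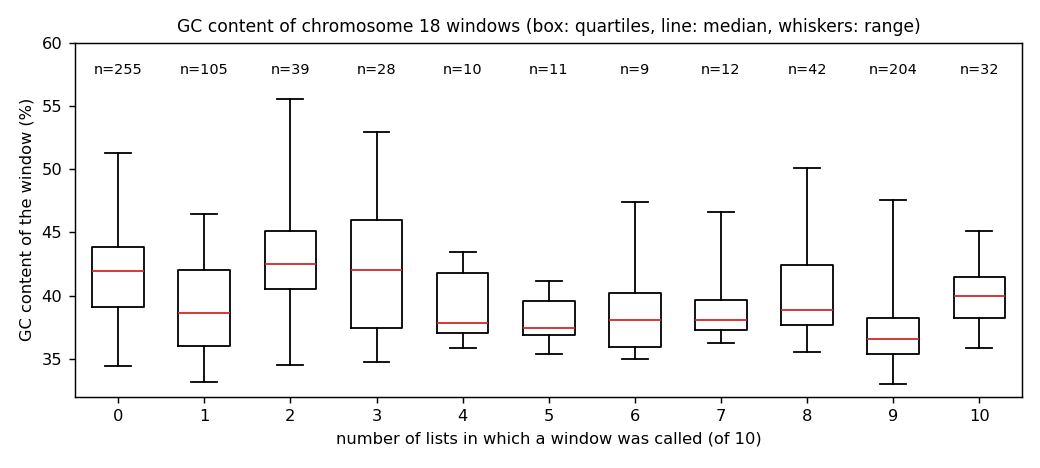
GC content (percent) of chromosome 18 windows by the number of lists, of 10, in which each was called, with boxes for the quartiles, a red line for the median, whiskers for the full range, and n the number of windows with sequence. Windows of 9 lists have the lowest mean, 37%, and windows of all 10 lists have 39.9%.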

How the data were processed

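The data are lamin-B1 cTSA-seq of K562 cells, of asynchronous HCT116 cells in bulk and at 3 cell numbers, and of HCT116 cells sorted at 5 stages. According to the Methods, the authors aligned reads to hg19 with Bowtie2 (2.3.2 in the submitters' processing notes), removed duplicates, counted reads in windows with bedtools (2.26.0), scaled libraries to a common total, formed a log2 ratio of the pull-down over its input, turned it into a z-score, called regions with a Hidden Markov Model of 3 states and intersected the calls of replicates. The deposited values are region starts and ends in bp, with no signal or reads, so the depth is unknown. The 90m G1 and 180m G1 lists are not named as consensus lists, so their merging over replicates is unknown. The list of 1000000 cells is named a consensus, while the labels hold 1 pull-down library for it.

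Regions were placed on windows of 100 kb, and a window was called from 50% coverage. Protein-coding genes came from GENCODE release 44 in its hg19 version and were inside from 80% of their length. Composition and the 150 bases upstream of genes were read from the hg19 sequence. By rule, the items named are the 3 longest stretches of each class, up to 8 genes in each by position, and the genes of 9 groups. Others, such as PTPRM, FHOD3, BCL2, GATA6, NPC1, the shorter stretches, the stretches that differ between stages and the genes of list patterns, were named after their values were seen. ZNF271P was listed among the zinc finger genes but is not annotated as protein-coding. The windows, gene groups and classes were chosen with earlier results of these data known. Since each condition has 1 list, no test was made. Python 3.11.15 was used with numpy 2.4.6, scipy 1.17.1 and matplotlib 3.10.9, and the window and gene counts were tested on simulated lists. The authors' 3 lists that set cTSA-seq of K562 against TSA-seq were not used.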

Additional observations from a re-analysis of the deposited data

How the results depend on the processing

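The share of chromosome 18 called in each of the 10 lists moved by less than its 95% binomial confidence interval when any overlap counted, when gaps of up to 100 kb were joined, when regions under 200 kb were dropped and when windows that are mostly assembly gap were left out. The same held for the shares of both arms with the border at the middle of the largest gap, and for genes inside by 50% or 100% of their length or by the start site. These intervals treat windows as independent, which neighboring windows are not. Without the 90m G1 list, windows called in all lists numbered 229 in place of 33, and those in all HCT116 lists and not in K562 15 in place of 2. The latter were 0 when a window also counted as called beside a called neighbor. By that setting, windows called in all 10 lists numbered 44 in place of 33 and at all 5 stages 44 in place of 35. Windows of no list numbered 252 in place of 287, of K562 and no HCT116 list 87 in place of 85. Windows called at 90m G1 and at no other stage numbered 40 in place of 41. The shares over all chromosomes were not computed by that setting. Of the 41 windows called at 90m G1 alone among the stages, 6 were also in none of the 4 lists of asynchronous HCT116 cells. With genes of all types, the total on the chromosome was 1310, in place of 266 protein-coding genes. Those inside then numbered 504 in K562, 434 in HCT116 bulk cells and 318, 323 and 309 with 1000000, 200000 and 50000 cells. At the stages they numbered 165 at 90m G1, 269 at 180m G1, 298 at G1, 313 at S and 268 at G2. No share over all chromosomes is given for this set. No paired analysis was possible because each condition has 1 list, and leaving out a replicate was not possible for the same reason.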

Other observations

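The K562 list could be set beside a deposited list of K562 regions that the authors called from published TSA-seq data, made with another lamin-B antibody and pulling down purified DNA. The series' own K562 TSA-seq samples were not used here. On chromosome 18 the TSA-seq list called 284 windows (36.4%, near the 33.9% of all windows) in 8 regions, and 271 were called by both methods, which is 95.4% of the TSA-seq windows and 63.8% of the cTSA-seq windows. Over all chromosomes these shares were 88.9% and 76.0%. On the short arm 14 of the 67 cTSA-seq windows (20.9%) were also called by TSA-seq, and on the long arm 257 of 358 (71.8%). Of the windows called in the 9 lists other than 90m G1, TSA-seq called 181 of 229 (79.0%). Of those called in K562 and in no HCT116 list it called 41 of 85 (48.2%). Of those called in all 10 lists it called 10 of 33 (30.3%), and of the 41 called at 90m G1 and at no other stage 0. For the arms and these classes no share over all chromosomes was computed, so none can be called particular to chromosome 18.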
